A study of Mus musculus with 6 samples.

Results

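The Nodal pathway genes examined here are the 9 entries of the deposited RNA-Seq table whose symbol is Nodal, Gdf3, Tdgf1, Acvr2b, Foxh1, Smad7, Lefty1, Lefty2 or Cer1, out of 21639 entries with 21376 distinct symbols. Each symbol had 1 entry, and all 9 were found. Gene expression was measured in 3 lines of mouse embryonic stem cells (ESCs), named WT, KD and AP3 here after the form of H2A.Z in their labels. Each line gave 1 library as ESCs (D0) and 1 as embryoid bodies (EBs, D3), 6 in all. The comparisons address whether wild-type H2A.Z, a histone variant found near gene promoters, and its acidic patch, a negatively charged surface of the histone, bear on gene expression in ESCs and during differentiation. The labels give the strain of all samples as V6.5 (129SvJaexC57BL/6), while the methods place the transgenes in KH2 ESCs. The WT and AP3 lines expressed a YFP-tagged transgene from a CMV promoter switched on with 1 µg/ml doxycycline, were sorted for YFP, and also carried short hairpins against the 3′ UTR of endogenous H2A.Z. In AP3, 3 residues of the acidic patch were replaced by those of the related histone H2A. The KD line is described as depleted of H2A.Z by the same kind of hairpin, which the study put into the inducible transgenic lines. The methods do not say which transgene the KD libraries hold or whether it was induced. ESCs were grown on fibroblast feeders with LIF, a cytokine that holds ESCs undifferentiated, and left the feeders for their last passage. EBs formed on non-adherent plates in medium lacking LIF. Nothing states which libraries share a culture or how many clones a line holds, and no difference below has a replicate check, so no p-value is given.

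Nodal and Gdf3 are secreted ligands of the TGF-beta family. With the co-receptor Cripto, encoded by Tdgf1, they act through type I and type II Activin receptors, of which Acvr2b encodes one of the type II receptors, and the activated Smad2 and Smad3 then enter the nucleus and act there with partners such as Foxh1. The pathway is best known for maintaining the epiblast and for patterning mesoderm and endoderm in the early embryo. Lefty1, Lefty2 and Cer1 encode secreted antagonists and Smad7 an inhibitory Smad, and Nodal, Lefty1, Lefty2 and Smad7 are themselves targets of the signal, so that the pathway holds both positive and negative feedback.

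The values are RPKM, read counts scaled to the length of the transcript in kilobases and to the mapped reads of the library. A gene was counted as higher or lower when its RPKM differed by more than 1.5-fold between 2 libraries, which is 0.58 on the scale of log2((RPKM + 0.001)/(RPKM + 0.001)). The estimated depth was between 16.9 and 30.9 M reads a library, and the AP3 ESC library had the highest estimate. Intervals in brackets are 95% intervals of the log2 change that cover the counting of reads only, and not differences between cultures. H2afz, the gene the hairpins target, stood at 279 RPKM in WT, 343 RPKM in KD and 304 RPKM in AP3 ESCs, and at 258, 236 and 394 RPKM in the EBs in the same order. It was thus not lower in the KD-labelled ESC library, and reads of a transgene fall on the same exons, so that library and its EB counterpart are called by their label here. The pluripotency gene Pou5f1 lay between 358 and 540 RPKM in the 6 libraries. Nanog was not analysed here.

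Both Lefty genes were far lower in AP3 ESCs than in the other ESC libraries, and they were back at or above the WT level in the EBs. The ligand Nodal was lower in the same library by less than 1.5-fold, and the co-receptor and receptor genes moved little. In the KD-labelled libraries, only the barely detected Cer1 differed from WT by more than 1.5-fold, and that at D0 alone.

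Nodal (chr10:60880720-60888085, mm9, plus strand, 3 exons) had 14.8 RPKM in WT, 15.3 RPKM in KD and 10.4 RPKM in AP3 ESCs. In EBs it had 16.8, 12.5 and 16.4 RPKM in the same order. Its lowest value was that of AP3 ESCs, and the highest of the 6 values was 1.62 times the lowest. Gdf3 (chr6:122555421-122560089, minus strand, 2 exons) had 46.6, 37.2 and 42.7 RPKM in WT, KD and AP3 ESCs and 39.9, 33.5 and 61.5 RPKM in the EBs. The AP3 EB library stood highest for Gdf3, and the KD-labelled library was the lowest of the 3 lines on both days. Gdf3 RPKM was between 2.37 and 4.12 times that of Nodal in each library.

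Tdgf1 (chr9:110842112-110848662, minus strand, 6 exons) was the most abundant of the 9 genes in every library. It had 481, 428 and 406 RPKM in WT, KD and AP3 ESCs and 312, 289 and 331 RPKM in the EBs. All 3 ESC values were above all 3 EB values. Tdgf1 ranked between 108 and 190 from the highest among the entries of a library, and its RPKM was 18.6 to 39.1 times that of Nodal. Of the Tdgf1 transcript, 96.5% also aligned elsewhere in the genome with an identity of up to 96.7%, and the authors' alignment kept reads matching as many as 20 locations, so its level is uncertain. Acvr2b (chr9:119311619-119342624, plus strand, 10 exons) had 12.2, 11.5 and 10.2 RPKM in the ESCs and 10.4, 11.7 and 8.49 RPKM in the EBs, in the order WT, KD, AP3. The AP3 library had the lowest Acvr2b value on each day, within a range of 1.44-fold over the 6 libraries.

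Foxh1 (chr15:76498737-76500303, minus strand, 3 exons), which encodes the forkhead partner of Smad2, had 16.4 RPKM in WT, 21.4 RPKM in KD and 26.1 RPKM in AP3 ESCs. In EBs it had 30.9, 24.7 and 39.2 RPKM. AP3 was the highest of the 3 lines for Foxh1 on both days. Smad7 (chromosome 18, 4 exons in its longest transcript), which blocks receptor signalling, had 15.8, 16.3 and 14.2 RPKM in the ESCs and 16.2, 13.6 and 18.1 RPKM in the EBs. Its 6 values spanned 1.33-fold, the narrowest range of the 9 genes.

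Lefty1 (chr1:182865170-182868532, mm9, plus strand, 4 exons) had 47.8 RPKM in WT, 68.4 RPKM in KD and 10.9 RPKM in AP3 ESCs, and 95.1, 75.1 and 147 RPKM in the EBs. Lefty2 (chr1:182823250-182829233, plus strand, 4 exons), its neighbour on the same chromosome, had 22.1, 21.3 and 3.27 RPKM in the ESCs and 52.7, 57.1 and 56.3 RPKM in the EBs. The AP3 ESC library stood below all 5 others for both genes. For Lefty1 the AP3 EB library stood above all others, so this line held both the lowest and the highest value, and the highest was 13.5 times the lowest. For Lefty2 the 3 EB libraries lay close together and the highest value was 17.4 times the lowest. Of the 36-base words of the Lefty1 transcript, 23.0% occur in that of Lefty2, and 15.4% of those of Lefty2 occur in that of Lefty1 or of 2310057J18Rik, so reads from such stretches could be split between genes. By the measure given for Tdgf1, 52.0% of the Lefty1 transcript and 62.3% of that of Lefty2 aligned elsewhere in the genome, with an identity of up to 98.0%, so the split of reads between them and with other copies is uncertain as well. Their summed RPKM was 69.9, 89.7 and 14.2 in WT, KD and AP3 ESCs and 148, 132 and 203 in the EBs.

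Cer1 (chr4:82527655-82531055, minus strand, 2 exons), a secreted antagonist of Nodal and BMP ligands, was barely detected. It had 0.127, 0.485 and 0.0478 RPKM in WT, KD and AP3 ESCs and 0.247, 0.283 and 0.109 RPKM in the EBs, which came to an estimated 3 to 16 reads a library. Cer1 enters the counts below where it passes 1.5-fold, but no order of its values over the 6 libraries is read at this depth. The other 8 genes averaged 1 RPKM or more.

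**Figure D1:**
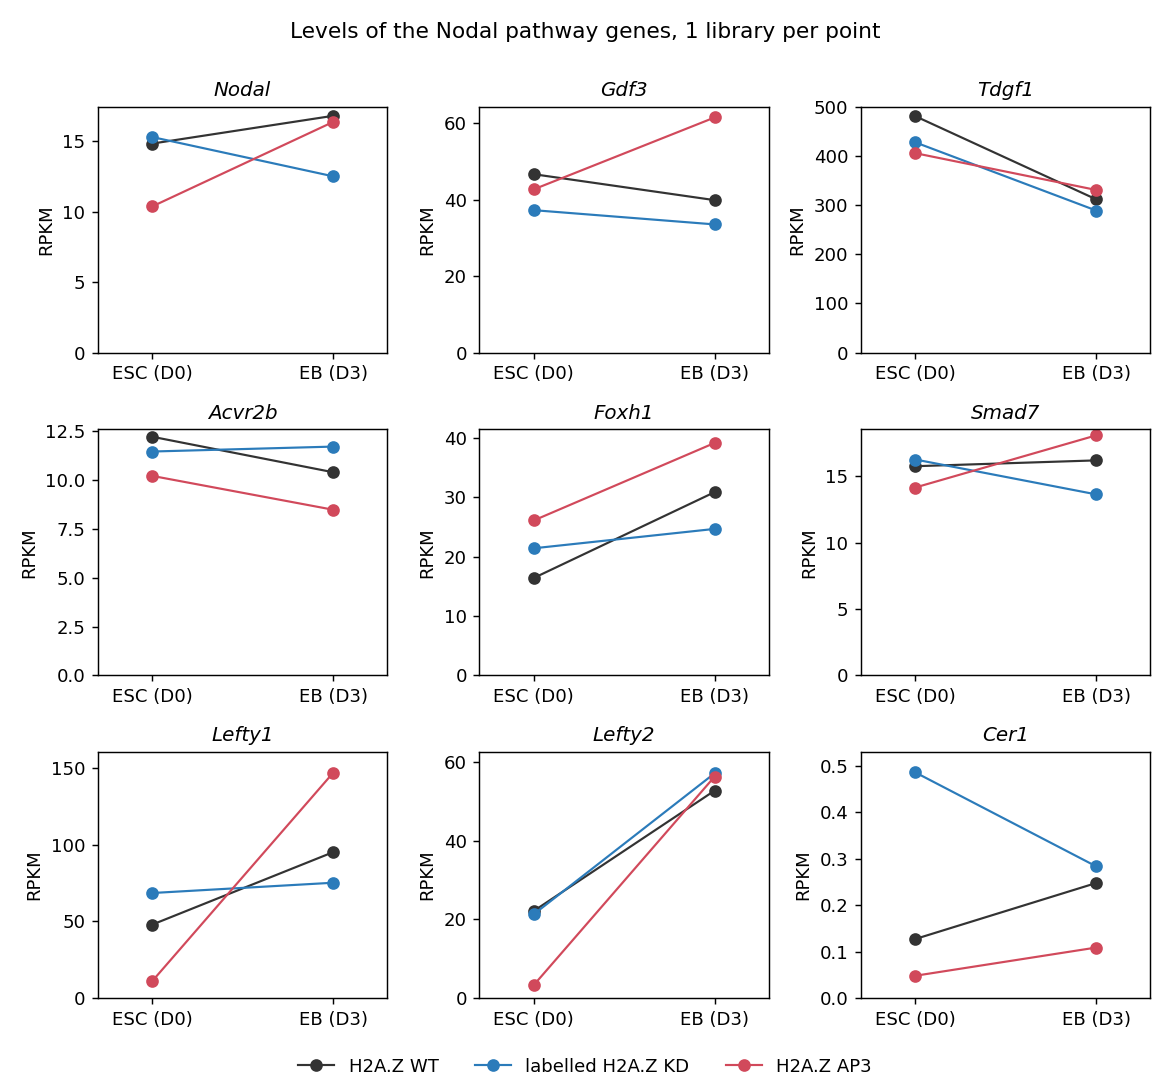
RPKM of each of the 9 Nodal pathway genes (linear vertical axis from 0, scaled for each gene) in ESCs (D0) and EBs (D3), with 1 library per point and a line joining the libraries of one line. Lefty1 and Lefty2 start from 10.9 and 3.27 RPKM in AP3 ESCs, below both other lines, and reach 147 and 56.3 RPKM in the EBs.

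In AP3 against WT ESCs, 1 of the 9 genes was higher and 3 were lower. Among all 11782 genes of mean 1 RPKM or more, 6.82% were higher and 5.46% lower, and of the 8 members in that class 1 was higher and 2 were lower. Lefty2 was 6.75-fold lower, a log2 change of -2.76 [-2.96 to -2.55] from an estimated 250 against 924 reads. Only 16 of the 11782 genes had a lower log2 change. Lefty1 was 4.38-fold lower, a log2 change of -2.13 [-2.28 to -1.99] from an estimated 545 against 1308 reads, and it ranked 29 from the lowest. Both genes thus stood at the far end of the changes of this pair of libraries. Foxh1 was higher by a log2 change of 0.67 [0.50 to 0.85], which passes the threshold, but its interval reaches below it. Nodal itself had a log2 change of -0.52 [-0.68 to -0.35], short of 1.5-fold, and 831 of the 11782 genes were further down. Gdf3 (-0.13), Tdgf1 (-0.25), Acvr2b (-0.26) and Smad7 (-0.15) were also slightly below WT. Cer1 was counted as lower with a log2 change of -1.39 [-4.06 to 1.28], an interval that spans 0. The median log2 change was -0.26 over the 9 genes and 0.0030 over all genes of mean 1 RPKM or more. The summed Lefty1 and Lefty2 RPKM was 4.71 times that of Nodal in WT, 5.86 times in KD and 1.37 times in AP3 ESCs, so the antagonists were lower in AP3 relative to their ligand as well.

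Markers of other cell types moved in the same pair of libraries. Of 9 extraembryonic endoderm markers, 7 were higher in AP3 ESCs, and their summed RPKM was 63.5 against 20.2 in WT and 26.5 in KD, while Afp and Ttr were listed at 0 in WT and AP3. Of 6 fibroblast markers, 4 were higher and 1 lower, with sums of 42.5, 25.8 and 22.8 RPKM in AP3, WT and KD, and Postn was listed at 0 in AP3. Of 4 trophectoderm markers, 2 were higher and 1 lower, with a sum of 16.9 against 11.3 RPKM, and Elf5 was listed at 0 in all 6 libraries. Of 4 primed epiblast markers, 2 were lower, Otx2 (1.37 against 4.22 RPKM) and Fgf5 (0.11 against 0.54 RPKM). Of 5 pluripotency markers, Klf4 (65.9 against 121 RPKM) and Sox2 (110 against 191 RPKM) were lower. Pou5f1 (540 against 421 RPKM), Zfp42 (195 against 203 RPKM) and Esrrb (88.7 against 92.2 RPKM) stayed within 1.5-fold. The sum of these 5 markers was 999 RPKM in AP3 and 1028 RPKM in WT. Fewer cells that express the Lefty genes and less Lefty RNA per cell cannot be told apart in these bulk libraries. The part of the other cell types in the Lefty values was not tested.

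**Figure D2:**
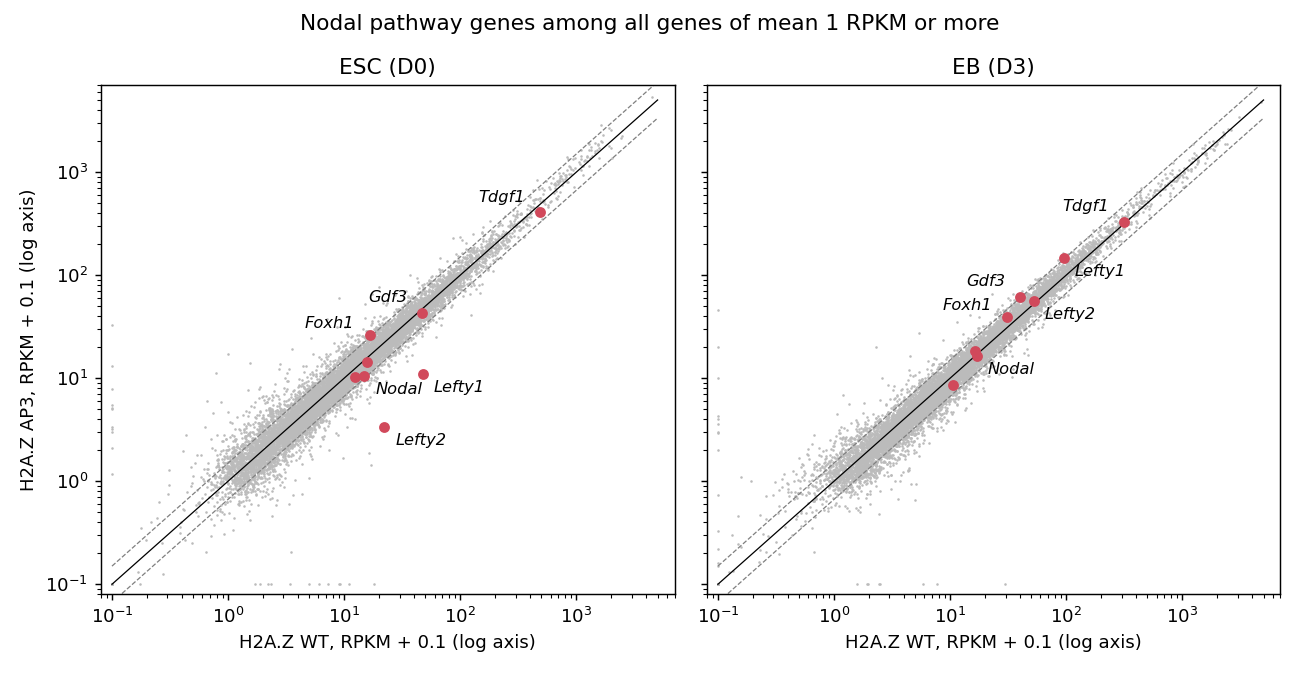
RPKM plus 0.1 in WT (horizontal) and AP3 (vertical), both on log axes, for the 11782 genes of mean 1 RPKM or more (grey) and the 8 Nodal pathway genes among them (red), in ESCs and EBs. The solid line marks equal values and the dashed lines 1.5-fold. Lefty1 and Lefty2 lie far below the lines in ESCs, and in EBs Lefty1 lies just above the upper line and Lefty2 near the solid one.

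In AP3 against WT EBs, 2 of the 9 genes were higher and 1 was lower, beside 3.99% higher and 5.19% lower among all genes of mean 1 RPKM or more. Of the 8 members in that class, which leaves out Cer1, 2 were higher and 0 lower. Lefty1 was 1.54-fold higher with a log2 change of 0.63 [0.56 to 0.69], the opposite direction to D0, and Lefty2 was close to WT with a log2 change of 0.09 [0.02 to 0.17]. Gdf3 was higher by a log2 change of 0.62 [0.54 to 0.71]. The Gdf3 and Lefty1 values stood close to the threshold, and each interval reaches below it. Foxh1 had a log2 change of 0.34, Smad7 of 0.16, Tdgf1 of 0.09, Nodal of -0.04 and Acvr2b of -0.29. Cer1, with an estimated 4 against 9 reads, was counted as lower at -1.18 [-3.31 to 0.68]. The median over the 9 genes was 0.09, against -0.0044 over all genes. Of the extraembryonic endoderm markers 2 were higher and 2 lower in this pair, with sums of 155 RPKM in AP3 and 113 RPKM in WT, and of the 6 fibroblast markers 3 were higher and 1 lower, with sums of 8.94 and 12.3 RPKM. Of the 4 trophectoderm markers 1 was higher and 1 lower, and 0 of the primed epiblast and pluripotency markers passed 1.5-fold.

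In the KD-labelled library against WT ESCs, 1 of the 9 genes was higher and 0 were lower, beside 2.88% higher and 4.03% lower among all genes, and of the 8 members without Cer1 the counts were 0 and 0. The 1 higher gene was Cer1, at an estimated 16 against 4 reads, with a log2 change of 1.93 [0.21 to 3.88]. Lefty1 had a log2 change of 0.52 [0.42 to 0.62], and Foxh1 of 0.38 [0.19 to 0.58]. These 2 genes were above WT by less than 1.5-fold. Lefty2 was at -0.06, Nodal at 0.04, Gdf3 at -0.32, Tdgf1 at -0.17, Acvr2b at -0.09 and Smad7 at 0.05. Of the 9 extraembryonic endoderm markers 4 were higher in this pair. Among these, Afp and Ttr were listed at 0 RPKM in WT and at only 0.0245 and 0.0430 RPKM in KD. Of the 4 trophectoderm markers 2 were lower, with a sum of 6.59 against 11.3 RPKM, 1 of the 4 primed epiblast markers was higher, and of the 6 fibroblast markers 1 was higher and 1 lower. In the EBs, 0 of the 9 genes were higher and 0 lower between the KD-labelled library and WT, beside 3.16% and 4.56% of all genes, and the same holds for the 8 without Cer1. With 1 library in each group, that count says only that no change passed 1.5-fold. The 9 log2 changes lay between -0.43, for Nodal, and 0.19, for Cer1. Lefty1 was at -0.34 and Lefty2 at 0.12. In this pair all 9 extraembryonic endoderm markers were higher, with sums of 317 RPKM in KD and 113 RPKM in WT, and 4 of the 6 fibroblast markers were lower, with sums of 7.13 and 12.3 RPKM. The trophectoderm, primed epiblast and pluripotency markers stayed within 1.5-fold. Their part in the values of the pathway genes was not tested.

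**Figure D3:**
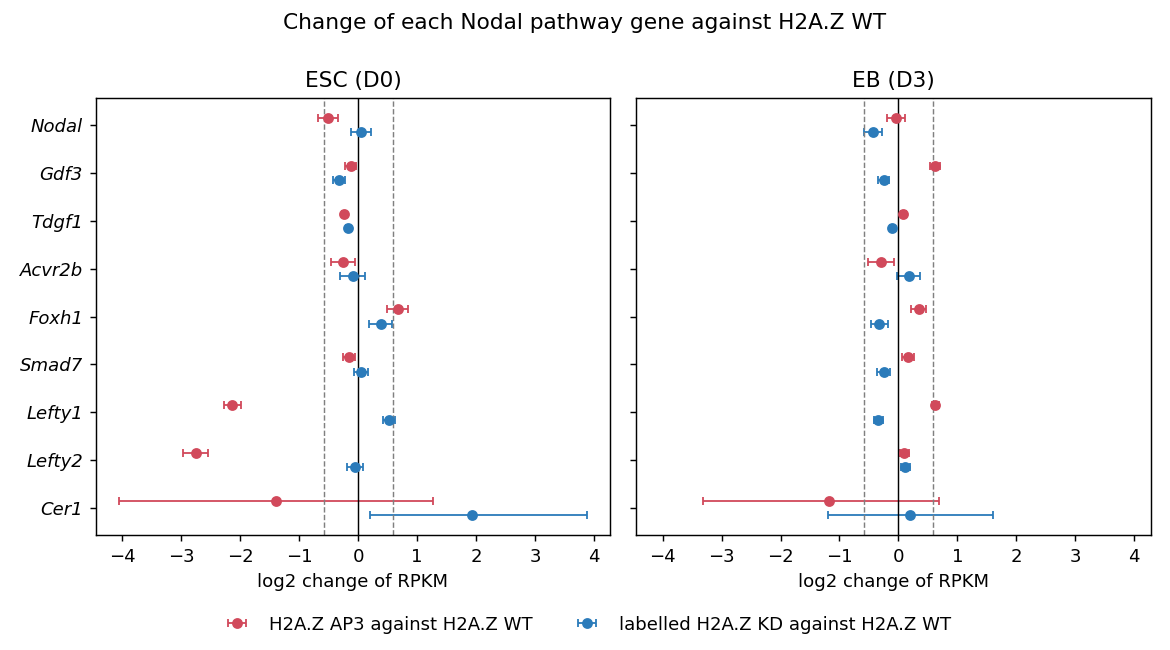
Log2 change of RPKM of each Nodal pathway gene in AP3 (red) and the KD-labelled library (blue) against the same WT library of that day. Bars are 95% intervals that cover read counting only, the solid line marks no change and the dashed lines 1.5-fold. At D0 the Lefty1 and Lefty2 values of AP3, -2.13 and -2.76, lie apart from all other values with narrow bars, and Cer1 has bars several log2 units wide.

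The AP3 and KD comparisons with WT share the WT library, so AP3 was also set against the KD-labelled library, which shares the AP3 library in turn. In ESCs, 0 of the 9 genes were higher and 3 were lower in AP3, beside 10.5% higher and 6.03% lower among all genes (0 and 2 of the 8 without Cer1). Lefty1 was 6.27-fold lower, a log2 change of -2.65 [-2.79 to -2.51], and Lefty2 6.50-fold lower, a log2 change of -2.70 [-2.91 to -2.50]. They ranked 23 and 21 from the lowest of 11782 genes. The low Lefty levels of AP3 ESCs were thus seen against each of the other ESC libraries. Nodal was at -0.56 [-0.72 to -0.40], short of 1.5-fold, and at -0.59, just past it, once the pair was centred on the median of all genes. Foxh1 was at 0.29, so its higher level in AP3 ESCs passed 1.5-fold against WT only. Cer1 was counted as lower at -3.32 [-5.55 to -1.32]. In EBs, 3 of the 9 genes were higher and 1 was lower, beside 5.40% higher and 5.06% lower among all genes (3 and 0 of the 8 without Cer1). The higher genes were Lefty1 (0.97, [0.90 to 1.03]), Gdf3 (0.87, [0.79 to 0.96]) and Foxh1 (0.67, [0.53 to 0.80]). Cer1 was the lower one at -1.38 [-3.42 to 0.39], and Lefty2 was at -0.02. Markers moved in these pairs too. In ESCs, 6 of the 9 extraembryonic endoderm markers were higher and 2 lower in AP3 than in KD. The 2 lower ones, Afp and Ttr, were listed at 0 RPKM in AP3 and at only 0.0245 and 0.0430 RPKM in KD. Of the 6 fibroblast markers 4 were higher and 1 lower, and 3 of the 4 primed epiblast markers were lower, with a sum of 35.4 against 48.8 RPKM. In the same pair 2 of the 4 trophectoderm markers were higher and 2 of the 5 pluripotency markers lower. In EBs, 7 of the 9 extraembryonic endoderm markers were lower in AP3, with a sum of 155 against 317 RPKM, 4 of the 6 fibroblast markers were higher and 1 lower, and 1 of the 4 trophectoderm markers was higher and 1 lower. Their part in the differences of the pathway genes was not tested.

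From ESCs to EBs, Foxh1 and both Lefty genes were higher in WT and Tdgf1 was lower. There, 4 of the 9 genes were higher and 1 was lower, beside 11.4% higher and 9.43% lower among all genes (3 and 1 of the 8 without Cer1). Lefty2 was 2.38-fold higher (log2 change 1.25), Lefty1 1.99-fold (0.99, [0.90 to 1.09]) and Foxh1 1.88-fold (0.91, [0.73 to 1.10]). Tdgf1 was lower with a log2 change of -0.63 [-0.66 to -0.59]. Cer1, on an estimated 9 against 4 reads, was the remaining higher gene at 0.96 [-0.98 to 3.02]. Nodal stood at 0.18 and its related ligand Gdf3 at -0.23. All 9 extraembryonic endoderm markers were higher in the WT EBs, from a sum of 20.2 to 113 RPKM, and all 4 primed epiblast markers, from 43.0 to 108 RPKM, while 4 of the 6 fibroblast markers were lower and 1 was higher, from 25.8 to 12.3 RPKM. Of the 5 pluripotency markers 1 was lower, Klf4 (121 to 17.4 RPKM), and their sum went from 1028 to 857 RPKM.

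In the KD-labelled libraries, 1 of the 9 genes was higher and 1 was lower in EBs than in ESCs, beside 11.5% and 8.79% of all genes (1 and 0 of the 8 without Cer1). Lefty2 was higher by 2.68-fold (1.42, [1.32 to 1.53]). Lefty1 was at 0.13 [0.05 to 0.22], so the 2 Lefty genes did not keep the same step in this line, and Lefty1 over Lefty2 went from 3.22 in ESCs to 1.32 in EBs. Tdgf1 had a log2 change of -0.57, just short of the threshold, or -0.61 and past it after centring, and Foxh1 of 0.20. Cer1 was the lower gene at -0.78 [-2.01 to 0.37]. In this line all 9 extraembryonic endoderm markers were higher in EBs, from a sum of 26.5 to 317 RPKM, and 3 of the 4 primed epiblast markers, from 48.8 to 136 RPKM, while 5 of the 6 fibroblast markers were lower and 1 was higher, from 22.8 to 7.13 RPKM. Of the 5 pluripotency markers 3 were lower, with a sum of 1051 RPKM in ESCs and 690 RPKM in EBs.

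In AP3, 5 of the 9 genes were higher and 0 were lower in EBs than in ESCs, beside 10.8% higher and 11.5% lower among all genes (4 and 0 of the 8 without Cer1). Lefty2 was 17.2-fold higher (4.10, [3.92 to 4.30]) and Lefty1 13.5-fold higher (3.75, [3.62 to 3.88]), ranks 19 and 24 from the highest. Both steps start from the same low AP3 ESC library as the D0 comparison and are no separate evidence for it. Nodal was higher by 0.66 [0.50 to 0.81], a gene that stayed within 1.5-fold in the other lines. Foxh1 was at 0.59 [0.46 to 0.71], at the edge of the threshold and below it after centring (0.54), and Cer1 at 1.17 on an estimated 4 against 3 reads. Tdgf1 was at -0.29, a smaller step than in the other lines. In AP3, 7 of the 9 extraembryonic endoderm markers were higher in EBs, from a sum of 63.5 to 155 RPKM, and all 4 primed epiblast markers, from 35.4 to 138 RPKM, while 4 of the 6 fibroblast markers were lower and 1 was higher, from 42.5 to 8.94 RPKM. Of the 5 pluripotency markers 2 were lower, with sums of 999 and 851 RPKM, and of the 4 trophectoderm markers 3 were lower, with sums of 16.9 and 9.07 RPKM. In the same step 1 trophectoderm marker was lower in WT and 1 in KD. The part of these cell types in the steps, and the difference between the lines in them, was not tested. In the EBs the summed Lefty RPKM was 8.79 times that of Nodal in WT, 10.6 times in KD and 12.4 times in AP3.

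Over the 6 libraries, log2(RPKM + 0.1) of Lefty1 and Lefty2 had a Pearson r of 0.96. Nodal had an r of 0.86 with Lefty1, 0.83 with Smad7 and 0.74 with Lefty2, but 0.33 with Gdf3 and -0.11 with Tdgf1. The lowest r among the 8 genes was that of Acvr2b and Foxh1, -0.91. Each r describes 6 libraries and none is a test. Without the AP3 ESC library, a choice made after seeing the data, r over the 5 others was 0.75 for Lefty1 with Lefty2, 0.45 for Nodal with Lefty1, -0.03 for Nodal with Lefty2 and 0.89 for Nodal with Smad7. It was 0.59 for Nodal with Gdf3, above that of Nodal with Lefty1, and 0.16 for Nodal with Tdgf1. The likeness of Nodal to the Lefty genes thus rested on that library. Other pairs moved as well when it was left out. The lowest r was then that of Tdgf1 and Lefty2, -0.953, next to Acvr2b and Lefty1, -0.952, while Acvr2b and Foxh1 had -0.916. Foxh1 with Lefty1 went from 0.37 to 0.99. Among 11774 other genes of mean 1 RPKM or more, the patterns most like that of Nodal were those of Mfap1a (r = 0.996), Ddx55 (0.978) and Elavl4 (0.978). For Lefty1 they were Senp3 (0.997), Ddx51 (0.996) and Riok1 (0.994), whose own levels spanned much narrower ranges, Senp3 between 48.4 and 63.2 RPKM. For Tdgf1 they were Llgl2 (0.995), Sfn (0.994) and Pygb (0.992), each lower in all 3 EB libraries than in the ESC libraries. With 6 points and this many genes, values of r this high say little about any one gene.

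Since Foxh1 binds Nodal targets at a short motif, the mm9 sequence within 5000 bases on either side of each start site was searched for AATCCACA, or TGTGGATT for the other strand. At least 1 match was found for 5 of the 9 genes and for 33.2% of 20667 genes with a known start. At least 2 matches were found for Nodal, Lefty2, Cer1 and Foxh1 and for 6.58% of all genes. The windows of 30 bases below show the pairs at the ligand and at 2 antagonists, 5′ to 3′ on the strand that carries AATCCACA, with the motif in capitals. They are shown to let the letters around the paired matches be compared. Only these exact letters were searched, so a site that differs from them is not counted. Lefty1, also a target of the signal, has no exact match in its window, and the pair at Foxh1 is not printed.
Nodal, intron 1, chr10:60882036-60882065, plus strand: gacccggacgcAATCCACAtcttctaatcc
Nodal, intron 1, chr10:60882830-60882859, plus strand: gattcttgtcaAATCCACAcggtgggggcg
Lefty2, upstream, chr1:182819013-182819042, plus strand: aaaagtttcctAATCCACAtctgcttcctt
Lefty2, upstream, chr1:182819096-182819125, plus strand: gggctcctgggAATCCACAtccaggagtct
Cer1, upstream, chr4:82531546-82531575, minus strand: ccaacagcttcAATCCACAtgtggatacaa
Cer1, upstream, chr4:82531919-82531948, plus strand: ttacccgactgAATCCACAtcttctgcctt
The Nodal motifs begin 1327 and 2121 bases after the start site, in the first intron. Those of Lefty2 lie 4226 and 4143 bases before its start, only 83 bases apart, and those of Cer1 lie 502 and 875 bases before. Smad7 had 1 match, and Lefty1, Gdf3, Tdgf1 and Acvr2b had 0 in this window. A match is a description of the sequence, and no binding was measured here.

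Of 35 other genes of the Nodal and Activin pathway, listed by role from textbook knowledge, 34 were found in the table and 27 had a mean of at least 1 RPKM. Gdf1 was not analysed here. The shares of all genes are over that same abundance class, so the 27 are counted beside them. Counts over all 34 also hold genes listed at or near 0 RPKM, such as Acvr1c and Lhx1. In AP3 against WT ESCs, 4 of the 27 were higher and 1 was lower, beside 6.82% and 5.46% of all genes, and over the 34 there were 6 and 4. The Activin subunit genes were higher, Inhba at 3.41 against 1.84 RPKM (log2 change 0.89) and Inhbb at 5.56 against 3.55 RPKM (0.65). Skil, which encodes the Smad corepressor SnoN and is a target of the signal, was lower at 18.5 against 29.0 RPKM (-0.65). Fstl3, an Activin-binding antagonist, was lower at 0.804 against 1.23 RPKM (-0.62). Foxa2 (1.41 against 0.420 RPKM, 1.75) and Sox17 (2.70 against 0.974 RPKM, 1.47), transcription factors of definitive and extraembryonic endoderm, were higher in AP3 ESCs, in the library whose extraembryonic endoderm markers were higher too. None of the 5 Smads and partners (Smad2, Smad3, Smad4, Zfyve9 and Trim33) passed 1.5-fold in any of the 9 comparisons, and the type I and type II receptor genes Acvr1b and Acvr2a stayed within it in the comparisons with WT.

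In AP3 against WT EBs, 1 of the 27 was higher and 0 were lower, beside 3.99% and 5.19% of all genes (4 and 3 over the 34). In the KD-labelled ESC library, 1 of the 27 was higher than in WT and 1 lower, beside 2.88% and 4.03% (4 and 2 over the 34). The lower one was Dact2, an antagonist of Nodal receptors, at 3.57 against 5.67 RPKM (-0.67), and the higher one Foxa2, below 1 RPKM in both libraries. In the EB library with that label 0 of the 27 were higher and 1 was lower, beside 3.16% and 4.56% (2 and 2 over the 34), and none of those changed genes reached 1 RPKM in either library. From ESCs to EBs, 6 of the 27 were higher and 2 lower in WT, beside 11.4% and 9.43% (9 and 4 over the 34). The counts were 5 and 3 in KD, beside 11.5% and 8.79% (7 and 5), and 4 and 5 in AP3, beside 10.8% and 11.5% (8 and 5). Sox17 and Eomes were higher and Inhba and Inhbb lower in all 3 lines. Foxa2 went from 0.420 to 2.50 RPKM in WT, from 0.884 to 3.45 RPKM in KD and from 1.41 to 1.94 RPKM in AP3, the last a step of less than 1.5-fold.

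**Figure D4:**
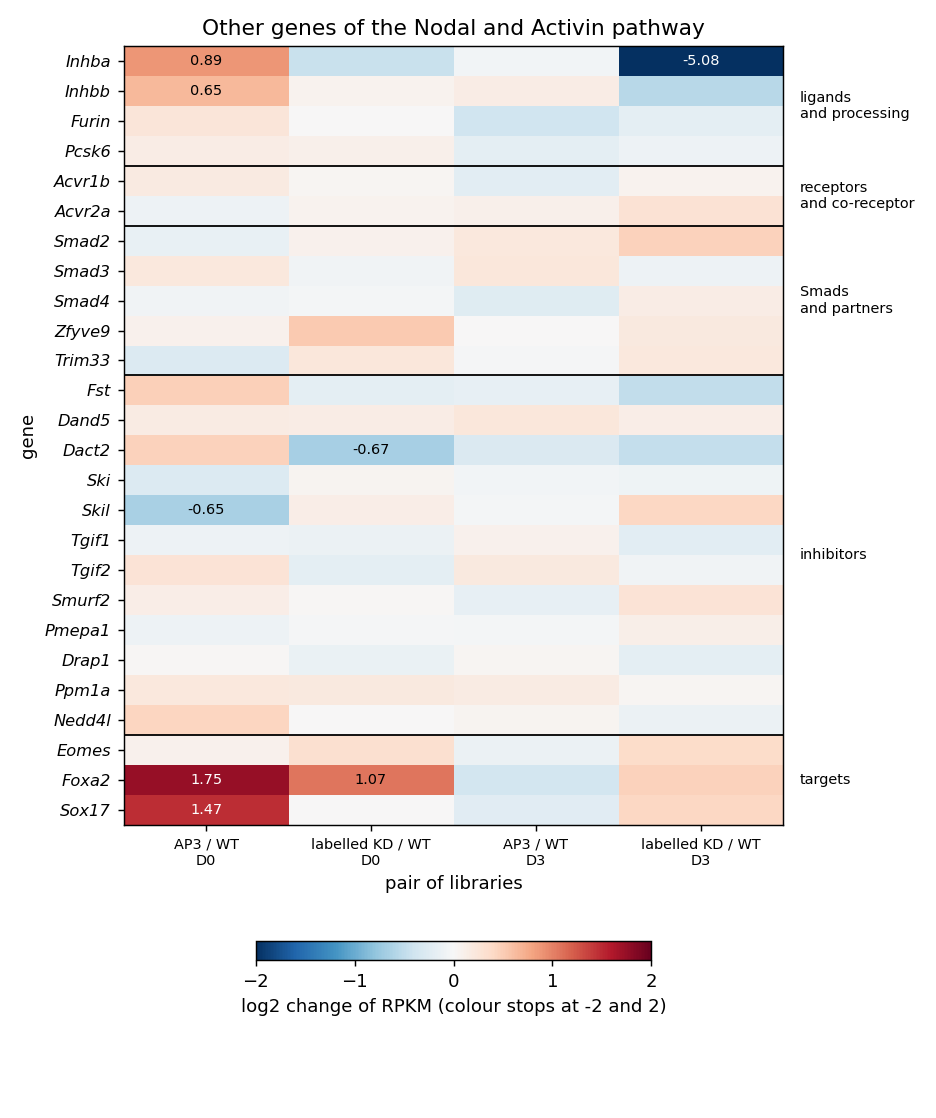
Log2 change of RPKM (colour, which stops at -2 and 2) for 26 of the 27 other pathway genes of mean 1 RPKM or more (rows, grouped by role), in AP3 and the KD-labelled library against WT at D0 and D3 (columns). Numbers are printed where the change passed 1.5-fold: Foxa2 (1.75) and Sox17 (1.47) stand out in AP3 ESCs, the receptors and Smads hold no number, and the Inhba value of -5.08 compares levels below 1 RPKM.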

How the data were processed

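RNA-Seq was analysed in 6 libraries, 1 for each line and day. The authors selected poly(A) RNA, aligned single-end reads to mm9, allowing 2 mismatches and 20 locations, and deposited RPKM values per gene, and their processing notes name TopHat 1.14, Bowtie 0.12.7, Cufflinks 1.3.0 and Cuffdiff. Read length and library totals are not given in the sources used here. The log2 ratios between lines in the same table hold the authors' own comparisons and were not used. The members and gene lists were chosen with earlier results of these data known.

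Log2 changes used a pseudocount of 0.001, far below the worth of 1 read, so changes of genes near 0 come out large. Shares of all genes are over 11782 genes of mean 1 RPKM or more. All 9 members are named, and other pathway genes where they passed 1.5-fold against WT with 1 RPKM in 1 of the 2 libraries. Where a symbol had several entries, the one with the highest mean was used. Depth was estimated on 3720 genes of 1 transcript over 1500 bases, from the RPKM that 1 read is worth. An earlier estimator was replaced because its depth for 1 library was not plausible. Reads were RPKM times depth times transcript length, and intervals are exact (Clopper-Pearson) for 2 Poisson counts. The libraries had no molecular identifiers, so reads can be copies of 1 molecule, which these intervals ignore. Transcripts and sequence are from GENCODE and the genome of NCBIM37 (mm9), and copies were sought with blastn 2.17.0 at 90% identity over 100 bases. Python 3.11.15, numpy 2.4.6, pandas 2.3.3 and scipy 1.17.1 were used, and the scripts were tested on simulated data. Other pseudocounts, thresholds, filters, centring and summed entries were tried. Values of 1 other pathway gene are not reported here, though it is in the counts.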

Additional observations from a re-analysis of the deposited data

Results flagged for a closer look

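Lefty1 moved in opposite directions on the 2 days: its log2 change in AP3 against WT was -2.13 in ESCs and 0.63 in EBs. Each value compares 1 library with 1 library, and the difference between the days was not tested.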

How the results depend on the processing

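With 1 library per group no replicate could be left out. Within a comparison of 2 libraries no paired analysis was possible, because each group has 1 library and no groups share a second replicate number. Pairing the days within a line would take 3 genotypes as replicates and was not run. No log2 change of a member past 1.5-fold turned its direction under any alternative. The counts of members above are those past 1.5-fold in either direction. Counting only genes of at least 1 RPKM in 1 of the 2 libraries, members past 1.5-fold came to 0 for KD against WT in ESCs and 1 for EBs against ESCs in KD, and other pathway genes to 6 and 1 for AP3 against WT in ESCs and EBs and 1 and 0 for KD. With a pseudocount of 0.1 the count for EBs against ESCs in AP3 was 3 in place of 5. With a pseudocount of 1, members came to 0 for KD against WT in ESCs, and 1 and 3 for EBs against ESCs in KD and AP3, and other pathway genes to 4, 0, 0 and 1 in the same comparisons with WT (AP3 ESCs and EBs, then KD) and 7, 6 and 8 between the days (WT, KD, AP3). At 2-fold, members came to 1 for AP3 EBs against WT and against KD, and 1, 1 and 3 between the days in WT, KD and AP3, and other pathway genes to 4 and 4 for AP3 against WT in ESCs and EBs, 2 for KD EBs and 6 between the days in AP3. The 1 member of AP3 EBs left at 2-fold was the barely detected Cer1, at -1.18 against WT and -1.38 against KD, while Lefty1 and Gdf3 fell short. Cer1 drops out under the filter and, in each comparison, with a pseudocount of 1. In AP3 EBs against ESCs with 0.1, Cer1 (0.50) and Foxh1 (0.58) fell short. Lefty2 in AP3 against WT ESCs was -2.44 with a pseudocount of 1. Centring on the median of all genes moved none of these counts by over 1.5 times, but Nodal in AP3 against KD ESCs passed 1.5-fold (count 4), Tdgf1 passed in KD EBs against ESCs (3) and Foxh1 no longer did in AP3 EBs against ESCs (4). Summing entries moved no count. Over all entries above 0, the share past 1.5-fold in the 9 comparisons was 23.9% to 37.9%. Depth limits Cer1 in every library.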
